A study of Homo sapiens with 8 samples.

Results

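The genes described here are 52 components of the TGF-beta and BMP pathways, chosen by gene symbol from the 60659 genes of the count table. They comprise ligands, latent TGF-beta binding proteins, the protease BMP1, receptors, SMADs, antagonists, the 4 ID genes and TGFBI. All 52 symbols matched 1 gene each. Levels per gene length are given as RPKM, the counts scaled to gene model length and library size. RNA was sequenced from SK-N-SH, a human neuroblastoma line that holds both adrenergic and mesenchymal cells, in 4 groups of 2 libraries each. All cells had received 10 µM ATRA (all-trans retinoic acid) for 24 h in differentiation medium. The Parental group was given Dox, and the ZMYND8 overexpression group was given Dox and carried FLAG-tagged ZMYND8 from a lentiviral Dox-inducible vector, with stably transduced cells selected by G418. No source used here describes a vector or G418 in the Parental cells, so their part in that comparison cannot be told apart from that of ZMYND8. The KD control and ZMYND8 KD groups were not labelled with Dox. The study's methods describe knockdown with an shRNA carried by a lentivirus. They give puromycin selection for SH-SY5Y and neural stem cells and do not state it for SK-N-SH. ZMYND8 is a chromatin reader that binds acetylated and methylated histones and works with corepressor and activator complexes.

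TGF-beta family ligands are secreted dimers that bind type II and type I serine/threonine kinase receptors. TGF-beta and activin receptors phosphorylate SMAD2 and SMAD3, BMP receptors phosphorylate SMAD1, SMAD5 and SMAD9, and both kinds of SMAD enter the nucleus with SMAD4. SMAD6, SMAD7, BAMBI, SKI and SKIL limit the signal inside or at the cell, and noggin, chordin, gremlin and follistatin bind ligands outside it. In neuroblastoma the TGF-beta arm is known from mesenchymal-type cells, and BMP ligands are known from the sympathetic lineage, where they act on noradrenergic neuron formation.

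Library totals ran from 38316523 to 56256979 counts. ZMYND8 itself had normalized counts of 3674 and 3532 in the Parental libraries and 207317 and 209975 under overexpression. It had 3008 and 3082 in KD control and 1584 and 1591 in ZMYND8 KD, 1.91-fold lower. The share of counts on mitochondrial genes was 0.11% to 0.168% in the overexpression experiment and 2.92% to 3.41% in the knockdown experiment, so levels set across the 2 experiments are descriptions. The replicates were called biological replicates, but no source used here says that they were separate cultures, so p-values measure the spread between these libraries. The adrenergic marker genes GATA2 and STMN2 were present in every library, while the noradrenergic enzyme gene TH had a normalized count of at most 4.7 in any library.

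A member was called changed when its adjusted p from edgeR's quasi-likelihood test, adjusted over all genes tested, was under 0.05, its log2 fold change was at least 1 in size and its mean normalized count exceeded 20. Under ZMYND8 overexpression all 3 TGF-beta ligand genes, INHBA, TGFBR2, SMAD3, LTBP1 and LTBP2 were lower. The ligand genes BMP2, GDF6 and GDF10, grouped here as BMP-side, were higher. Receptors of both arms and the BMP-side SMADs went in both directions. Of 49 members tested, 13 were called lower, against 6.84% of all 20835 genes tested. The called-lower members made up 26.5% of those tested. Another 8 members, or 16.3%, were called higher, against 11.8% of all genes. At an adjusted p under 0.05 with no fold threshold, 24 members were lower, or 49.0% against 29.1% of all genes, and 18 were higher, or 36.7% against 31.7%. The other 7 tested members did not pass. INHBB, INHBE and BMP5 were too low to test. The median log2 fold change of the members tested was −0.11, beside 0.03 over all genes. Placing the 2 members at 0 to 1 parental counts at their bounds could not move this median, since both lie above it either way. The median was −0.24 without ZMYND8 overexpression replicate 1 and 0.04 without ZMYND8 overexpression replicate 2, so its sign rests on the latter library. In bulk RNA, fewer cells of a type and less RNA per cell cannot be told apart, and this applies to every difference given here.

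**Figure D1:**
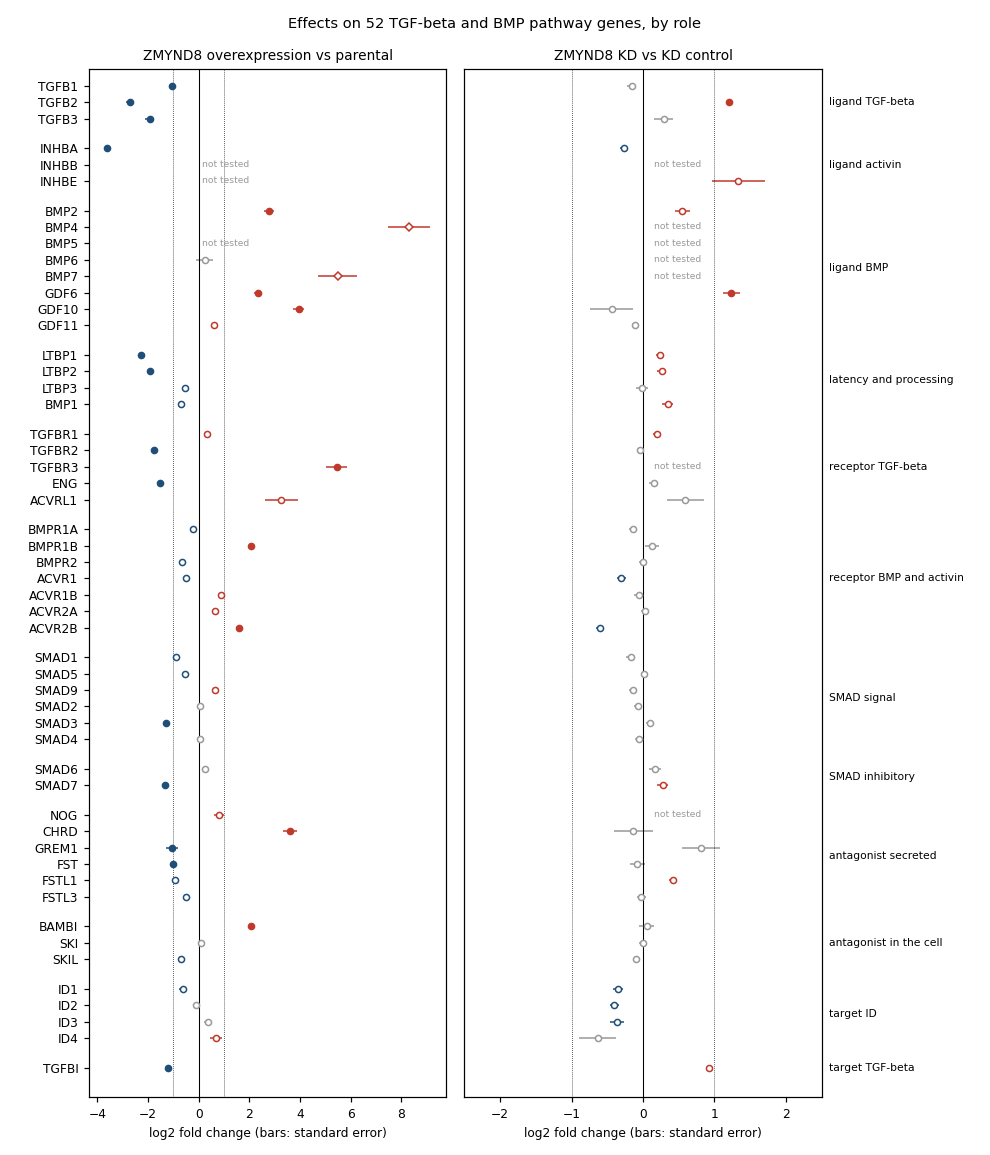
Log2 fold change of each member (x axis, with its standard error) under ZMYND8 overexpression against Parental (left) and under ZMYND8 KD against KD control (right), grouped by role. Filled points were called, open coloured points passed an adjusted p of 0.05 only, grey points did not pass, and diamonds mark BMP4 and BMP7, whose Parental libraries held 0 or 1 count. INHBA lies farthest left at −3.63, while in the knockdown panel TGFB2 and GDF6 are the only filled points.

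For 44 members RefSeq gives at least 1 promoter, 75 in all, and the 250 bases before each start were searched on both strands for motifs of SMADs and of factors that act with them. GGCGCC, a GC-rich SMAD element, was in 28% of the member promoters and in 16.4% of all 35116 promoters. CAGAC, the single SMAD box, was in 34.7% against 38%. The palindrome GTCTAGAC, whose letters hold no CAGAC on either strand, was in 1.33% against 0.182%, a single member promoter. The AP-1 motif TGANTCA was in 5.33% against 6.57%, the E-box CANNTG in 52% against 61.8% and the nuclear receptor element AGGTCA in 10.7% against 12.1%. By direction under overexpression, 3 of 6 called-higher members with a promoter and 4 of 13 called-lower ones held GGCGCC, as did 11 of 23 members tested and not called. These are matches of letters, given without a test, and members with several starts count once per promoter. The windows below were chosen after the motif search, to show what such matches look like in members that changed in opposite directions and in SMAD6, which holds the palindrome. Each has 90 bases upstream of a RefSeq start (GRCh38.p14), written 5′ to 3′ on the gene's strand, with the motif in capitals. BAMBI, chr10:28677297-28677386, has 3 copies of GGCGCC that begin 209, 196 and 181 bases before the start. GDF10, chr10:47300060-47300149, and CHRD, chr3:184379964-184380053, have 1 copy each, as does TGFBI, chr5:136028862-136028951. SMAD6, chr15:66702146-66702235, has GTCTAGAC, TGFB2, chr1:218345086-218345175, has CAGAC, and FST, chr5:53480454-53480543, has TGANTCA. All 7 lie on the plus strand, and none overlaps an exon of its gene in the count table.
BAMBI: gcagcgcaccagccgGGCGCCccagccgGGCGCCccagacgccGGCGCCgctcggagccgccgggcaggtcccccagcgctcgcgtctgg
GDF10: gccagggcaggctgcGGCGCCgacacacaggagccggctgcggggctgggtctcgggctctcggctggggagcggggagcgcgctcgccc
CHRD: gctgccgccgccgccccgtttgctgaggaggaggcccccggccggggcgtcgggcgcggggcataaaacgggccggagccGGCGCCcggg
TGFBI: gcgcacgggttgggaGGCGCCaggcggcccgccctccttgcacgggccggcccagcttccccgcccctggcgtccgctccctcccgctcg
SMAD6: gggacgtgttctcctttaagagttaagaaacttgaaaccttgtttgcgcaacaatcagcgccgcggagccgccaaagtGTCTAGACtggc
TGFB2: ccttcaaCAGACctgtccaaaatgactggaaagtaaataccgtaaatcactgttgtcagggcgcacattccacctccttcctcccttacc
FST: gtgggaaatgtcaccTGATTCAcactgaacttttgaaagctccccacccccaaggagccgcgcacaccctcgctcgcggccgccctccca

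The 3 TGF-beta ligand genes were all called lower under overexpression. Gene positions are those of the GRCh38 gene models counted. TGFB1, the most abundant of them per length at 61.7 RPKM in Parental, had normalized counts of 9973 and 10380 in the Parental libraries and 5010 and 4658 under overexpression. This was 2.09-fold lower (log2 fold change −1.06 ± 0.05, SE, adjusted p = 4.68e-08, edgeR). TGFB2 (chr1:218345336-218444619, plus strand), a ligand that needs the co-receptor betaglycan for tight binding, had 515 and 427 in Parental against 78.9 and 62.0 under overexpression. The groups lay far apart, with a log2 fold change of −2.72 ± 0.17 (SE, adjusted p = 1.93e-07, edgeR). Of the exon bases of TGFB2 that were counted, 22.7% are shared with TGFB2-OT1 on the same strand, so part of its reads could be assigned to either gene. TGFB3 had 266 and 227 against 63.9 and 63.2, a log2 fold change of −1.94 ± 0.17 (SE, adjusted p = 3.6e-06, edgeR).

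INHBA (chr7:41667168-41705834, minus strand), which encodes the subunit of activin A, fell most of all members tested. It had 12013 and 12181 normalized counts in Parental and 1012 and 930 under overexpression, 12.4-fold lower (log2 fold change −3.63 ± 0.06, SE, adjusted p = 2.98e-11, edgeR). The groups lay far apart beside the spread within each. The other activin subunit genes were at or near 0 in this experiment, with INHBB at 0 and 0 counts in Parental and INHBE at 1 and 0.

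Most ligand genes grouped here as BMP-side went the other way. The grouping does not say which SMADs each ligand activates, and GDF5, which was called lower, lies outside the members. BMP2 (chr20:6767686-6780246, plus strand), a ligand that acts on sympathetic precursors, had 33.3 and 37.2 normalized counts in Parental and 269 and 215 under overexpression, 6.87-fold higher (log2 fold change 2.78 ± 0.21, SE, adjusted p = 8.32e-07, edgeR). GDF6, a BMP-family ligand also known as BMP13, had 60.7 and 62.6 against 312 and 311, 5.07-fold higher (adjusted p = 3.36e-07, edgeR). GDF10, the gene of BMP3b, had 21.4 and 20.5 against 280 and 372, 15.5-fold higher (adjusted p = 9.89e-08, edgeR). In none of these 3 genes did the groups overlap. BMP4 had no count in either Parental library and 40 in each overexpression library. Against a floor of 3 counts per library it was at least 12.8-fold higher, but its mean of 19.9 lay just under the threshold for a call, which it passed with upper quartile scaling or without either Parental library. BMP7, another ligand of the sympathetic lineage, had 0 and 1 count in Parental and 39 and 19 under overexpression, a ratio of 55.8 with an exact 95% counting interval of 9.63 to 2240. That interval and the floor cover counting error only. GDF11, the most abundant ligand of this grouping per length, rose by 0.61 ± 0.05 on the log2 scale (SE, adjusted p = 2.78e-06, edgeR). BMP6 did not pass, at 0.24 ± 0.33 (SE, adjusted p = 0.558, edgeR), and BMP5 had 0 and 0 counts in Parental and 6 and 6 under overexpression. In all, 6 of the 7 tested ligands of this grouping, GDF10 and GDF11 among them, were higher at an adjusted p under 0.05. None of the 7 was lower by edgeR, DESeq2 or an unadjusted p.

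The 4 members grouped here under ligand latency and processing were lower. LTBP1 joins latent TGF-beta to the matrix. The grouping follows gene names and does not say which of the other LTBP proteins bind TGF-beta. LTBP1 (chr2:32946953-33399509, plus strand) had 54945 and 58924 normalized counts in Parental and 11593 and 11721 under overexpression, 4.85-fold lower (adjusted p = 2.04e-10, edgeR). LTBP2 had 26084 and 28207 against 7495 and 6846, 3.76-fold lower (adjusted p = 1.75e-09, edgeR). LTBP3 changed less, by −0.54 ± 0.05 (log2, SE, adjusted p = 6.39e-06, edgeR). BMP1, a protease that cuts procollagens, chordin and LTBP1, had 4166 and 4439 against 2583 and 2642, a log2 fold change of −0.71 ± 0.05 (SE, adjusted p = 1.01e-06, edgeR). Thus all 4 members of this role passed in the same direction, where 29.1% of all genes were lower, and 2 of them were called. LTBP4 lies outside the members and is named because it went the other way. It rose by 0.86 ± 0.06 on the log2 scale (SE, adjusted p = 8.83e-07, edgeR), below the fold threshold.

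Among the TGF-beta receptors, the type II receptor and 1 co-receptor were lower and the other co-receptor was higher. TGFBR2 (chr3:30606601-30694142, plus strand), the ligand-binding type II receptor, had 5231 and 5528 normalized counts in Parental and 1539 and 1597 under overexpression, 3.41-fold lower (log2 fold change −1.77 ± 0.06, SE, adjusted p = 1.29e-09, edgeR). TGFBR1, the type I receptor that it activates, rose by 0.34 ± 0.05 on the log2 scale (SE, adjusted p = 1.53e-04, edgeR). The 2 subunits of the signalling receptor therefore differed in direction. ENG (endoglin), a co-receptor of endothelial and mesenchymal cells, had 9523 and 9495 against 3735 and 2841, 2.87-fold lower (adjusted p = 3.24e-07, edgeR). TGFBR3 (betaglycan), the co-receptor that presents TGF-beta2, had 7.14 and 0.978 against 159 and 183, called higher with an adjusted p of 9.47e-07 (edgeR). Its log2 fold change of 5.46 ± 0.41 (SE) rests on 6 and 1 Parental counts and was 7.26 without Parental replicate 1 and 4.56 without Parental replicate 2. ACVRL1 (ALK1), the type I receptor that pairs with endoglin, had 0 and 6.85 against 31.9 and 42.5. It passed the adjusted p (1.13e-03, edgeR) with a mean of 19.3, below the threshold for a call. The log2 fold change, 3.27 ± 0.63 (SE), came out at 2.40 when Parental replicate 1 was left out and at 8.10 when Parental replicate 2 was.

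Of the 7 BMP and activin receptors all passed an adjusted p of 0.05, with 4 higher and 3 lower. Over all genes tested 60.8% passed, with 31.7% higher and 29.1% lower. BMPR1B, a type I BMP receptor, had 321 and 360 normalized counts in Parental and 1370 and 1471 under overexpression, 4.18-fold higher (log2 fold change 2.06 ± 0.09, SE, adjusted p = 1.26e-08, edgeR). ACVR2B, a type II receptor for activins and several BMPs, had 1562 and 1651 against 4774 and 4993, 3.06-fold higher (log2 fold change 1.61 ± 0.06, SE, adjusted p = 2.35e-09, edgeR). These were the 2 receptors of this role that were called. The activin receptors ACVR1B and ACVR2A rose by 0.90 and 0.65 on the log2 scale. BMPR2, the BMP type II receptor, and ACVR1 (ALK2) were lower, at −0.67 and −0.51. BMPR1A was lower by a small amount, −0.21 ± 0.05 (log2, SE, adjusted p = 4.22e-03, edgeR), which turned to 0.01 with the gene length and GC trend removed.

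The transducing SMADs of the TGF-beta arm split. SMAD3 (chr15:67063763-67195169, plus strand) had 14538 and 14925 normalized counts in Parental and 6181 and 5729 under overexpression, 2.46-fold lower (log2 fold change −1.30 ± 0.05, SE, adjusted p = 9.76e-09, edgeR). SMAD2, which is phosphorylated by the same receptors, was at 0.05 ± 0.05 (log2, SE, adjusted p = 0.423, edgeR), and the shared SMAD4 at 0.03 ± 0.05 (log2, SE, adjusted p = 0.588, edgeR). Of the BMP SMADs, SMAD1 and SMAD5 were lower, at −0.89 and −0.55, and SMAD9 was higher, at 0.66 on the log2 scale. The inhibitory SMADs also differed. SMAD7, which blocks TGF-beta receptors and is itself induced by TGF-beta, had 2057 and 2235 against 937 and 754, 2.51-fold lower (adjusted p = 6.1e-07, edgeR). SMAD6, which acts mainly on BMP signals, did not pass, at 0.25 ± 0.14 (log2, SE, adjusted p = 0.139, edgeR), and its 2 overexpression libraries, at 1215 and 853, spanned the Parental values of 856 and 900.

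**Figure D2:**
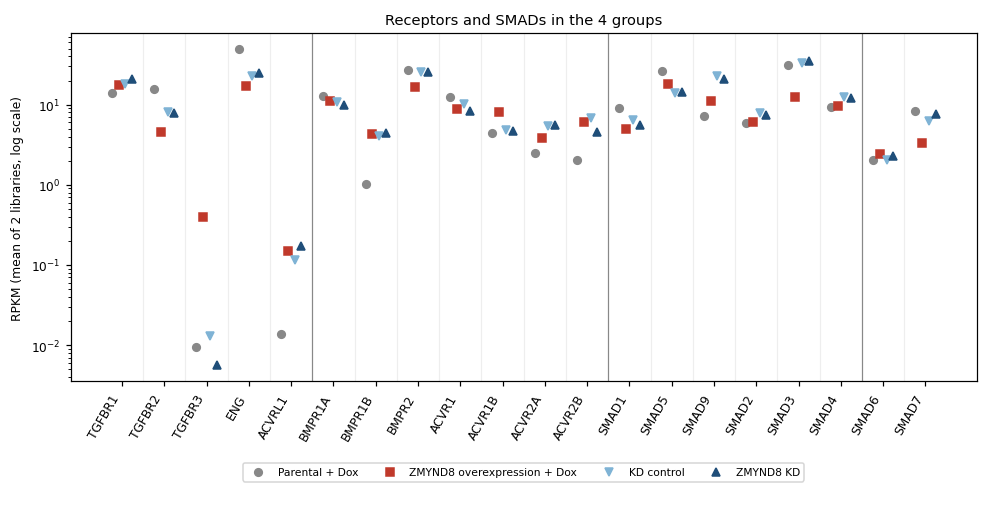
Levels of the receptors and SMADs in RPKM (y axis, log scale), each symbol the mean of 2 libraries of a group. TGFBR2, ENG, SMAD3 and SMAD7 have their lowest symbol under ZMYND8 overexpression, and BMPR1B and ACVR2B have theirs in Parental.

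Secreted antagonists were mixed. CHRD (chordin), which binds BMP2 and BMP4, had 10.7 and 17.6 normalized counts in Parental and 193 and 161 under overexpression, 12.2-fold higher (adjusted p = 8.45e-07, edgeR). NOG (noggin), a BMP antagonist, rose by 0.80 ± 0.19 on the log2 scale (SE, adjusted p = 3.88e-03, edgeR). FST (follistatin), which neutralizes activins, had 1875 and 1833 against 984 and 821, a log2 fold change of −1.02 ± 0.08 (SE, adjusted p = 1.85e-06, edgeR). GREM1 (gremlin 1), a BMP antagonist of mesenchymal cells, had 148 and 122 against 77.0 and 50.5, a log2 fold change of −1.05 ± 0.23 (SE, adjusted p = 2.69e-03, edgeR). The folds of FST, GREM1 and TGFB1 lie close to the threshold of 1, and each lost its call under 1 or more alternatives while keeping its direction and an adjusted p under 0.05. Of the 31-mers of GREM1, 99.3% also occur on an alternate contig of the genome, so its counts are uncertain. FSTL1, a follistatin-like matrix protein, had 38074 and 38662 against 19853 and 19721, a log2 fold change of −0.95 ± 0.05 (SE, adjusted p = 3.62e-08, edgeR), and FSTL3 fell by 0.50 on that scale.

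Of the antagonists at the membrane and in the nucleus, BAMBI (chr10:28677510-28682932, plus strand), a receptor without a kinase that competes with type I receptors, had 196 and 180 normalized counts in Parental and 870 and 690 under overexpression, 4.19-fold higher (log2 fold change 2.07 ± 0.14, SE, adjusted p = 3.13e-07, edgeR). SKIL (SnoN), a SMAD corepressor and itself a TGF-beta target, was lower by −0.69 ± 0.06 (log2, SE, adjusted p = 2.25e-06, edgeR). Its relative SKI was at 0.09 ± 0.05 (log2, SE, adjusted p = 0.143, edgeR).

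The ID genes encode helix-loop-helix inhibitors and are direct BMP targets. They did not move together under overexpression. ID1 was lower, at −0.62 ± 0.17 (log2, SE, adjusted p = 9.08e-03, edgeR), and ID4 was higher, at 0.67 ± 0.24 (log2, SE, adjusted p = 0.0303, edgeR). ID2 and ID3 did not pass, at −0.11 ± 0.11 and 0.37 ± 0.15. Neither ID1 nor ID4 passed with DESeq2 (adjusted p = 0.169 and 0.125), and ID4 also missed it without Parental replicate 2 or without ZMYND8 overexpression replicate 1 (adjusted p = 0.202 and 0.156, edgeR). The 2 overexpression libraries differed, with ID1 at 5666 and 3390, ID3 at 3931 and 2524 and ID4 at 152 and 118, beside Parental values of 7155 and 6903, 2541 and 2498, and 105 and 68.5.

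TGFBI (chr5:136028988-136063818, plus strand), a secreted matrix protein named for its induction by TGF-beta, was the most abundant member, at 281 RPKM in Parental. It had 107417 and 111788 normalized counts in Parental and 44004 and 51067 under overexpression, 2.29-fold lower (log2 fold change −1.20 ± 0.07, SE, adjusted p = 1.1e-07, edgeR).

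**Figure D3:**
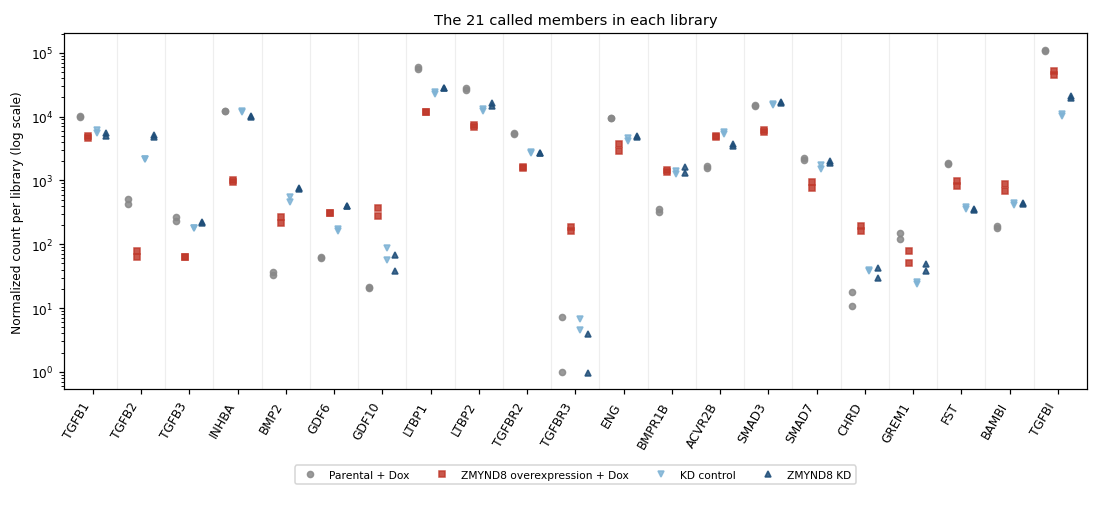
Normalized counts (y axis, log scale, TMM over all 8 libraries) of the 21 members called in either comparison, 1 symbol per library. The 2 libraries of each group lie close together for most genes, and the red overexpression symbols sit apart from the grey Parental ones for every gene shown.

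Under ZMYND8 KD the members changed far less. Of 45 tested, 2 were called higher, against 1.36% of all 19789 genes tested, and none was called lower, against 0.596%, by edgeR or DESeq2. At an unadjusted p under 0.05 by edgeR, 14 members were higher and 12 lower, beside 3777 and 3376 of all genes tested. At an adjusted p under 0.05 alone, by edgeR, 11 members were higher, or 24.4% against 13.4% of all genes, and 6 were lower, or 13.3% against 10.8%. The median log2 fold change was 0.00 over the members and −0.01 over all genes. The 7 members not tested were INHBB, BMP4, BMP5, BMP6, BMP7, TGFBR3 and NOG, which had few counts in this experiment.

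The 2 called members were ligands. TGFB2 had 2130 and 2168 normalized counts in KD control and 5057 and 4850 in ZMYND8 KD, 2.31-fold higher (log2 fold change 1.21 ± 0.05, SE, adjusted p = 3.83e-07, edgeR). GDF6 had 174 and 163 against 390 and 402, 2.36-fold higher (log2 fold change 1.24 ± 0.12, SE, adjusted p = 6.24e-05, edgeR). For both genes the groups lay apart by more than the spread between libraries. INHBE, an activin subunit gene of liver, passed with a log2 fold change of 1.33 ± 0.37 (SE, adjusted p = 0.0245, edgeR), at counts of 12 and 10 against 27 and 27, and lost it when any 1 library was left out.

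Smaller increases at an adjusted p under 0.05 were those of TGFBI, BMP2, FSTL1, LTBP1, LTBP2, BMP1, SMAD7 and TGFBR1. TGFBI had 10325 and 10787 in KD control and 19442 and 20695 in ZMYND8 KD, 1.9-fold higher (log2 fold change 0.93 ± 0.05, SE, adjusted p = 2.1e-06, edgeR), below the fold threshold. BMP2 had 558 and 466 against 767 and 724 (log2 fold change 0.55 ± 0.10, SE, adjusted p = 3.42e-03, edgeR). FSTL1 had 19305 and 19471 against 25242 and 26318 (0.41 ± 0.05, adjusted p = 2.35e-04, edgeR). LTBP1, LTBP2, BMP1, SMAD7 and TGFBR1 had log2 fold changes from 0.20 to 0.35, and each of these 5 lost its adjusted p of 0.05 when at least 1 library was left out. LTBP3 was at −0.01 ± 0.08 (log2, SE, adjusted p = 0.923, edgeR).

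The members that were lower in ZMYND8 KD were ACVR2B, ACVR1, INHBA and 3 of the 4 ID genes. ACVR2B had 5263 and 5633 in KD control and 3432 and 3728 in ZMYND8 KD, a log2 fold change of −0.60 ± 0.06 (SE, adjusted p = 5.13e-05, edgeR). ID1, ID2 and ID3 were at −0.35, −0.40 and −0.36 on the log2 scale, with adjusted p of 5.59e-03, 9.21e-04 and 0.0237 (edgeR). ID4, at 114 and 66.7 against 59.8 and 56.3, did not pass, and ID3 did not pass with DESeq2 (adjusted p = 0.18) or without KD control replicate 1 (adjusted p = 0.173, edgeR). With no filter and with all 8 libraries in 1 fit, edgeR's adjusted p was 0.0595 and 0.127 for ID1 and 0.155 and 0.0937 for ID3. INHBA, at 12186 and 11691 against 9693 and 10034, was lower by −0.27 ± 0.05 (log2, SE, adjusted p = 2.69e-03, edgeR). None of the 6 transducing SMADs passed by edgeR or DESeq2, with 2 at an unadjusted p under 0.05 in edgeR, and their log2 fold changes ran from −0.17 to 0.09.

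The 2 experiments share no library, so the effects can be set side by side and their difference tested. Of 44 members tested in both, 14 passed an adjusted p of 0.05 in both, 8 of them with opposite signs and 6 with the same sign. Over all genes, 61.7% of the 3529 that passed in both had opposite signs. The 8 were TGFB2, LTBP1, LTBP2, BMP1, ACVR2B, SMAD7, FSTL1 and TGFBI, and all but ACVR2B were lower under overexpression and higher in ZMYND8 KD. The 6 with the same sign were BMP2, GDF6 and TGFBR1, higher in both, and INHBA, ACVR1 and ID1, lower in both, though ID1 missed an adjusted p of 0.05 under some alternatives in each experiment. The 4 that passed in neither were SMAD2, SMAD4, SMAD6 and SKI. The shares of all genes that passed in both or in neither were not counted. The 14 and the 4 therefore show nothing particular to the members.

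**Figure D4:**
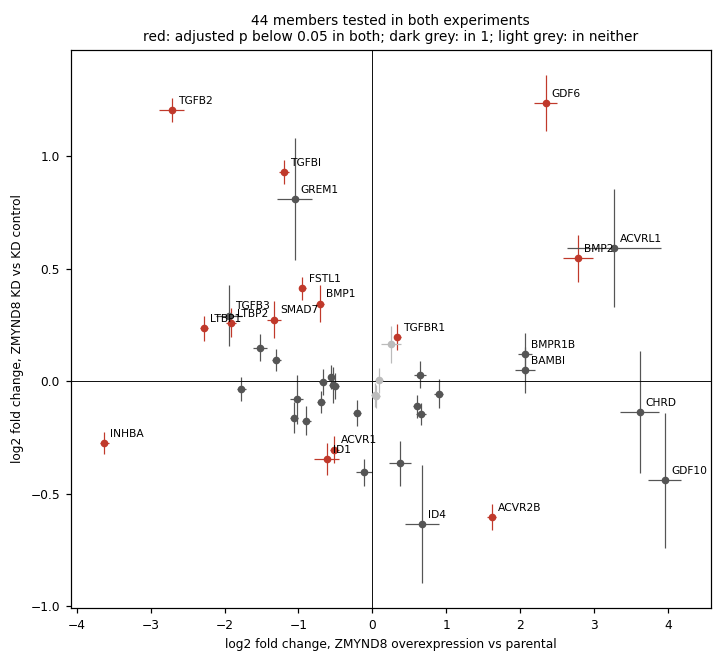
Log2 fold change under ZMYND8 overexpression (x axis) against that under ZMYND8 KD (y axis) for the 44 members tested in both, with standard errors. TGFB2 stands at the upper left (−2.72 and 1.21), GDF6 and BMP2 at the upper right, and ACVR2B alone among the red points at the lower right.

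The difference between the overexpression effect and the knockdown effect, fitted over all 8 libraries, passed an adjusted p of 0.05 in 38 of 50 members tested, or 76.0%, against 49.0% of 22619 genes. It passed with a size of at least 1 on the log2 scale in 24 members, or 48.0%, against 23.1%. TGFB2 had the most negative difference, −3.92 ± 0.14 (SE, adjusted p = 1.51e-11, edgeR). INHBA followed at −3.36, LTBP1 at −2.52, TGFB3 at −2.24, LTBP2 at −2.18, TGFBI at −2.13, GREM1 at −1.87, TGFBR2 at −1.74, ENG at −1.68, SMAD7 at −1.61, SMAD3 at −1.40, FSTL1 at −1.37 and BMP1 at −1.06. Positive differences of at least 1 were those of BMP4, TGFBR3, GDF10, CHRD, ACVRL1, BMP2, ACVR2B, BAMBI, BMPR1B, ID4 and GDF6, and among those not resting on counts near 0 GDF10 led with 4.39 ± 0.42 (SE, adjusted p = 4.74e-07, edgeR). For GDF6 the difference was 1.10 ± 0.19 (SE, adjusted p = 2.46e-04, edgeR), so its increase was larger under overexpression than in the knockdown. The difference of ID4, 1.30 ± 0.38 (SE, adjusted p = 0.0115, edgeR), lost its adjusted p of 0.05 without Parental replicate 2, ZMYND8 overexpression replicate 1 or KD control replicate 1 (0.053, 0.0501 and 0.0813).

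The levels of the members also differed between the control groups of the 2 experiments, Parental with Dox and KD control. Both KD control libraries lay above both Parental libraries for 22 members and below them for 21, and 9 overlapped. The share over all genes was not counted, so these counts show nothing particular to the members. The design confounds Dox, the vector and the experiment in this contrast, which therefore cannot be told apart, and no test was made. TGFBI was 10.4-fold lower in KD control than in Parental, FST 5.03-fold lower, GREM1 5.44-fold lower and NOG 19.5-fold lower. In the other direction BMP2 was 14.5-fold higher in KD control, TGFB2 4.56-fold, BMPR1B 3.95-fold and ACVR2B 3.39-fold higher. The control levels of INHBA, SMAD3, BMPR2, SMAD6 and ID2 were within 1.10-fold of each other. The order of the groups differed by gene. TGFB2 rose from overexpression through Parental and KD control to ZMYND8 KD, at 0.23, 1.54, 7.03 and 16.2 RPKM. TGFBI ran from Parental at 281 through overexpression at 122 and ZMYND8 KD at 51.5 to KD control at 27.1. For BMPR1B the Parental level of 1.03 stood apart, while those of KD control (4.06), overexpression (4.28) and ZMYND8 KD (4.41) did not differ beyond the spread of their libraries. Over the 52 members the highest group mean was in Parental for 20, in overexpression for 15, in ZMYND8 KD for 10 and in KD control for 7. These numbers include INHBB and BMP5, which had few counts, and were not set beside all genes.

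Per length, the most abundant members in Parental after TGFBI were LTBP1 at 153, ID1 at 113, FSTL1 at 89.7, LTBP3 at 87.2 and TGFB1 at 61.7 RPKM. The SMADs ranged there from 2.03 for SMAD6 to 31.2 for SMAD3, and the signalling receptors from 0.0137 for ACVRL1 to 27.0 for BMPR2. Transcripts of the ligands grouped here as BMP-side were scarce, with GDF11 at 6.79 and each of the others under 0.4 in Parental.

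A further 52 genes of the pathway outside the members gave a mixed picture. Of 40 tested under overexpression, 11 were called higher and 5 lower, with 17 and 13 passing the adjusted p alone and a median log2 fold change of 0.06. FSTL5, a follistatin-like gene, had the largest increase of those with a mean above 100 (log2 fold change 4.72 ± 0.14, SE), followed by the BMP ligand gene BMP8B (3.76 ± 0.19, SE). The stress-induced ligand gene GDF15 fell most among them (−1.95 ± 0.06, SE), followed by FKBP1A (−1.62 ± 0.06, SE), whose product holds type I receptors inactive. Of the BMP and GDF genes below that mean, GDF5 was called lower (−2.45 ± 0.25, SE, adjusted p = 1.06e-05, edgeR), and GDF7 and BMP8A were called higher. They are named because GDF5 went against BMP2, GDF6 and GDF10. DESeq2 also called GDF5 and GDF7, but not BMP8A. In ZMYND8 KD, 2 of 38 tested were called higher and 1 lower. None of these 3 had a mean above 100. They were BMPER (2.00), a secreted BMP modulator, LRRC32 (1.11), which displays latent TGF-beta, and BMP3 (−1.11), named here because the count is small. DESeq2 also called BMPER and LRRC32, and gave no adjusted p for BMP3.

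Genes known as TGF-beta targets were lower under overexpression in nearly all cases. Of 19 tested, 17 were lower at an adjusted p under 0.05, 14 of them called, and 1, JUNB, was higher at 0.30 (log2). SNAI1 did not pass, at 0.03. The median log2 fold change was −1.63, beside 0.03 over all genes. CDKN2B, a cell cycle inhibitor gene, had the largest decrease (−3.51 ± 0.12, SE), followed by TGM2, a transglutaminase (−2.61 ± 0.05, SE). In ZMYND8 KD 7 of 19 were higher, 4 lower and 8 did not pass, with a median of 0.19. LOX, which crosslinks collagen, was the 1 gene of them called, with normalized counts of 796 and 732 in KD control and 1813 and 1717 in ZMYND8 KD (log2 fold change 1.21). CDKN2B and TGM2 were not raised there and had log2 fold changes of −0.50 and −0.25.

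BMP targets outside the members did not share a direction. Of 10 tested under overexpression, 6 were higher and 4 lower at an adjusted p under 0.05, with a median of 0.52, while 1 was called higher and 3 lower. GATA2, a transcription factor gene that is also an adrenergic marker, was at 4.0 ± 0.06 (log2, SE) and the skeletal factor gene RUNX2, also a mesenchymal marker, at −2.5 ± 0.09 (log2, SE), followed among the decreases by ATOH8 at −1.78 ± 0.21 (log2, SE). In ZMYND8 KD 2 of 11 were higher and 4 lower, with a median of −0.03. DLX2, with a mean of 24.6, was the 1 gene called there, at 1.02 on the log2 scale, and is named because it was alone. Its adjusted p was 0.0472 with edgeR, and DESeq2 gave none.

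**Figure D5:**
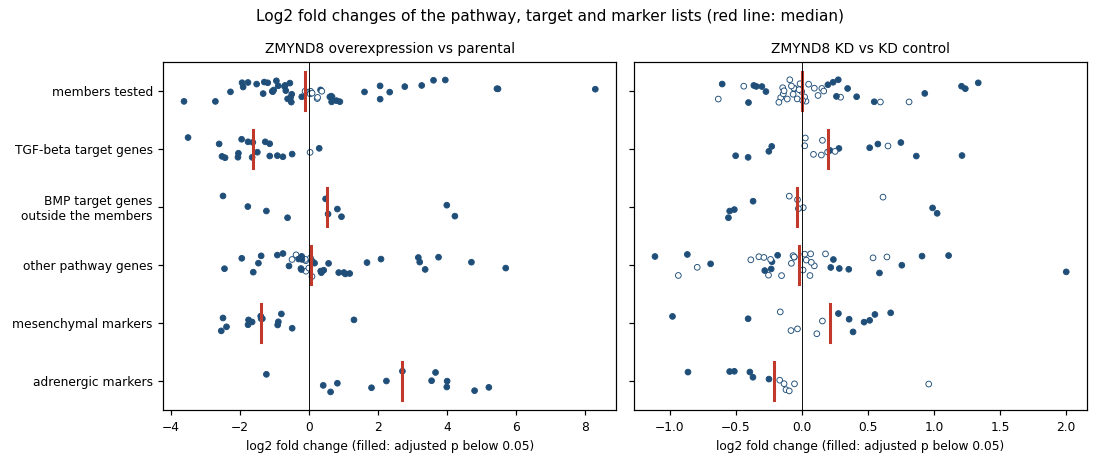
Log2 fold changes (x axis) of the members and of the other lists under ZMYND8 overexpression (left) and ZMYND8 KD (right), 1 point per gene tested, with the list's median as a red line. Under overexpression the medians are −1.63 for TGF-beta targets, −1.40 for mesenchymal markers and 2.71 for adrenergic markers, and in ZMYND8 KD they are 0.19, 0.22 and −0.21.

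Markers of the 2 cell states of neuroblastoma also changed. Of 14 mesenchymal markers tested under overexpression, 13 were lower and 1, TWIST1 (1.31 ± 0.05, SE), was higher at an adjusted p under 0.05, with CD44 (−2.55 ± 0.10, SE) and RUNX2 the most lowered. Their summed level was 1330 to 1390 RPKM in Parental, 577 to 615 under overexpression, 756 to 779 in KD control and 928 to 970 in ZMYND8 KD. Of 13 adrenergic markers tested, 12 were higher under overexpression, among them STMN2 (4.01 ± 0.07, SE), and TBX2 was lower (−1.24 ± 0.06, SE). Their summed level was 183 to 187 in Parental, 513 to 545 under overexpression, 432 to 463 in KD control and 348 to 404 in ZMYND8 KD. The 5 glial markers summed to 0.567 to 0.7 RPKM in Parental, 1.8 to 1.81 under overexpression, 1.47 to 1.57 in KD control and 1.59 to 1.7 in ZMYND8 KD, and none was at 0 in all libraries. Of 4 tested under overexpression, S100B was called higher (3.14 ± 0.29, SE, adjusted p = 4.11e-06, edgeR) and the others did not pass. In ZMYND8 KD 7 mesenchymal markers were higher and 2 lower, and 6 adrenergic markers were lower and none was higher by edgeR, DESeq2 or an unadjusted p. The lists overlap, since FN1, COL1A1 and SNAI2 are both mesenchymal markers and TGF-beta targets, and GATA2, GATA3 and TBX2 are both adrenergic markers and BMP targets. The part of cell state in the members' changes was not tested.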

How the data were processed

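Total RNA depleted of rRNA was sequenced as paired ends. The authors deposited raw read counts per gene, made with HISAT2 on GRCh38 and featureCounts on GENCODE 28, as the study's methods state. The strand setting was not given in the sources used here, so reads of overlapping genes on opposite strands could not be told apart. Gene symbols came from GENCODE 44 by gene ID (60418 of 60659 genes), and 3 lines of 1 gene split in the file were left out. Library totals were 38316523 to 56256979 counts, and replicates differed by more than sampling noise (chi-square per degree of freedom 6.05 to 8.86), so all were kept.

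Overexpression and knockdown were tested in separate models of 4 libraries by edgeR 4.0.16 (R 4.3.3, filterByExpr, TMM, quasi-likelihood test, Benjamini-Hochberg adjustment over all genes tested), and the difference of the 2 effects over all 8. This test was checked on simulated data. Normalized counts and RPKM shown used TMM over all 8 libraries. Alternatives were RLE and upper quartile scaling, DESeq2 1.42.0, no filter, the replicate number as a block, removal of a loess trend (span 0.5) over gene length and GC content, leaving out each library, 1 fit over 8 libraries and other thresholds. The members named with per-library values were those called or with a difference of at least 1. The genes named from each other list, by fold change, were the 2 largest increases and decreases among called genes with a mean above 100, besides those said to be named for other reasons. The members and all lists were chosen with earlier results of these data known. Promoter sequences were those of RefSeq for GRCh38.p14. The named values of 1 adrenergic marker are not reported here.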

Additional observations from a re-analysis of the deposited data

How the results depend on the processing

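The count of called members under overexpression was 18 to 22 under the other scalings, tests, filters, fits and count thresholds, beside 21. It was 20 to 23 when 1 library was left out. FST, GREM1 and TGFB1 lost their calls with upper quartile scaling, FST and GREM1 with the length and GC trend removed or without ZMYND8 overexpression replicate 2, and GREM1 without Parental replicate 1 or with the block and the trend removed. BMP4, LTBP3, ACVRL1, ID1 and NOG each gained a call under at least 1 alternative. With a mean above 100, 18 were called (6 higher, 12 lower), since TGFBR3, CHRD and GREM1 have lower means. The 2 calls in the knockdown were kept under every alternative run. With no fold threshold the calls were 39 under overexpression (15 higher, 24 lower) and 16 in the knockdown (10 higher, 6 lower), because the threshold itself was dropped. The median log2 fold change of the members under overexpression, −0.1131, became −0.0362 with upper quartile scaling, −0.0558 with DESeq2, −0.0186 with no filter and −0.1812 with the length and GC trend removed. It ran from −0.2436 to 0.0415 when 1 library was left out. The median of the difference, −0.1454, became −0.073 with upper quartile scaling, −0.0617 with DESeq2 and −0.08 with no filter, and ran from −0.1896 to 0.0198 when 1 library was left out. Upper quartile scaling moved the median of all genes under overexpression from 0.0314 to 0.1088, DESeq2 to 0.1314 and no filter to 0.1386. The cause of the other shifts was not tested.

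With the length and GC trend removed, BMPR1A turned to 0.0146 under overexpression and the difference of ACVR1 to 0.0116. The replicate numbers did not pair the libraries, with correlations of same-number deviations of 0.00877 and −0.00728, and the labels give no shared source for a number. A replicate block left 21, 2 and 38 members called or past the adjusted p in the 2 comparisons and the difference, as without it. The block with the trend removed gave a median of −0.181 under overexpression, 0.014 for BMPR1A and 0.0115 for the difference of ACVR1. Both KD control libraries stayed above both Parental libraries for 22 members with TMM, 22 with RLE and 23 with total counts alone. Members with single-digit counts, such as BMP4, BMP7, TGFBR3 and ACVRL1 in Parental, have folds of uncertain size, since they rest on few counts.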
